A study of Homo sapiens with 21 samples.

Results

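Filaggrin (FLG) and 8 other genes of epidermal cornification were described across all 21 arrays of a study of mismatch repair in cultured human cell lines. The members were 3 genes of the fused S100 family (FLG, HRNR and CRNN), the scaffold precursor gene IVL, 4 small proline-rich genes (SPRR1A, SPRR1B, SPRR2A and SPRR3) and the cross-linking enzyme gene TGM1. All probes annotated to these 9 genes were taken, which gave 1 probe for each gene, 9 of the 30113 probes that carry 1 gene and 9 of 20046 genes. The genes were chosen with their levels on these arrays in view, so their own levels and differences are given as a description and without a test.

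Cornification is the last step of keratinocyte differentiation, in which the cell replaces its plasma membrane by an insoluble shell of cross-linked protein, the cornified envelope, and its contents by bundled keratin. Transglutaminases join involucrin and the small proline-rich proteins into that shell, whereas profilaggrin is stored in granules and cut into filaggrin units that bundle keratin and are later degraded to moisturising amino acids. All members except TGM1 lie in the epidermal differentiation complex of chromosome 1, and loss of FLG function causes ichthyosis vulgaris and predisposes to atopic dermatitis.

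The regions before the start sites of 5 members are shown because these members set apart the patterns below: FLG is the member that was bright in KLE, HRNR its neighbour and relative that was not, and SPRR1A, SPRR1B and SPRR3 the proline-rich members that were highest in MCF10A. Each sequence is the 250 bases before the annotated start in the RefSeq annotation of GRCh38.p14, read 5′ to 3′ on the strand of the gene. Capitals mark matches to TGANTCA, the AP-1 motif, and to TATAAA, the TATA box.
FLG, chr1:152325240-152325489, minus strand: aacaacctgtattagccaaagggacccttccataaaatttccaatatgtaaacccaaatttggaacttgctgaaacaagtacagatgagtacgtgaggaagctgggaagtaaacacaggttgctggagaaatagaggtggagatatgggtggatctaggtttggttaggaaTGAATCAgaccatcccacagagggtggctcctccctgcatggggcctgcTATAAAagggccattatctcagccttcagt
HRNR, chr1:152224194-152224443, minus strand: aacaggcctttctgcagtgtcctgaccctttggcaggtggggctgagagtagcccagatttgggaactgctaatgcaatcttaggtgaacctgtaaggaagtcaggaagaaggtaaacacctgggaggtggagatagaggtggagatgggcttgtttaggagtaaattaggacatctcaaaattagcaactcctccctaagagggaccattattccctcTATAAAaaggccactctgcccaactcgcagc
SPRR1A, chr1:152983831-152984080, plus strand: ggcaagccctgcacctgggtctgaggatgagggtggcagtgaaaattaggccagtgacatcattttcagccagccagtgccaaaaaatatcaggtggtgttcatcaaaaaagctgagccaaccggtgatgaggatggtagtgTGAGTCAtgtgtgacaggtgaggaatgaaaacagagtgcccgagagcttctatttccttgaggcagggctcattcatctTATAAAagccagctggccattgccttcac
SPRR1B, chr1:153030953-153031202, plus strand: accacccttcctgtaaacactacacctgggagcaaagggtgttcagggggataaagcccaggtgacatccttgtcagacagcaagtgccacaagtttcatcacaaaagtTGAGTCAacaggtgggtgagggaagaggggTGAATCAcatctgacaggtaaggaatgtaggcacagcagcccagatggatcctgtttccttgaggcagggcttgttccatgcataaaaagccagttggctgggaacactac
SPRR3, chr1:153001499-153001748, plus strand: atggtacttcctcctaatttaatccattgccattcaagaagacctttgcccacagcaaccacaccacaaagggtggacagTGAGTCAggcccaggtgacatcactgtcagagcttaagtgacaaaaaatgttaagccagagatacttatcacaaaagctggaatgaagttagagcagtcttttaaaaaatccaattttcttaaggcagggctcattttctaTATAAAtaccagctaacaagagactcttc

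Of the 9 members, 8 had a window in this table. TGANTCA was found on either strand in 7 of the 8 windows (all but that of HRNR), and in 6.57% of all 35116 windows. TATAAA was found in 7 of the 8 windows (all but that of SPRR1B), and in 10.7% of all windows. Both motifs stood in 6 of the 8, against 1.07% of all windows, and no match of one overlapped a match of the other. The TATAAA matches began 29 to 31 bases before the start, and the TGANTCA match of FLG began 79 bases before it, that of CRNN 93, that of SPRR1A 108, that of IVL 123, that of SPRR3 170 and that of SPRR2A 197. SPRR1B held a pair of TGANTCA matches, at 141 and 111 bases. In global alignments of the 28 pairs of windows, SPRR1A and SPRR1B shared most bases (68.8% of 250), FLG and HRNR came next (62%), and the median pair shared 56.2%. A match describes these letters and is neither a binding site nor a cause of a level.

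Total RNA was hybridised in 1 colour to Illumina expression BeadChips, in 7 groups of 3 arrays. The lines were MCF10A, a non-tumorigenic breast epithelial line, and HCT116, a line from a colorectal carcinoma that lacks working mismatch repair, both labelled CTRL with no statement of what the control treatment was, and KLE, an endometrial carcinoma line. The KLE cells expressed a short hairpin RNA in every group: 059 or 062 against MSH3, 543 or 603 against MSH6, or shCTRL, a control hairpin, so every hairpin comparison rests on the same 3 shCTRL arrays. MSH3 and MSH6 encode subunits of the protein complexes that recognise mispaired bases.

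Values are probe intensities, and levels are log2(intensity + 16) after quantile normalization, on which the median of every array was 6.92. Array medians of intensity lay between 87.7 and 122.2, and background remains in the values, so a probe near the array median has only an upper bound and fold changes of dim probes are understated. The labels do not say whether replicates were separate cultures, so errors and p-values measure nothing beyond the spread among these samples. Precision is limited by the 3 arrays of each group. In bulk RNA, fewer cells with a transcript and less transcript per cell cannot be told apart. Of the basal keratins, KRT5 read 2711 to 4020 intensity units in MCF10A, against 83 to 109 on all other arrays, and the suprabasal genes KRT1 and KRT2 were below the array median on all 21 arrays, while KRT10 was above it on all 21. The 4 basal markers read here (KRT5, KRT14, LAMB3 and CDH3) and the 5 Müllerian markers below are only part of the lists first named. Of the 4 basal markers 4 were above the array median on all arrays of MCF10A, 2 in HCT116 and 2 in KLE shCTRL. The part of this difference in the levels of SPRR1A, SPRR1B, SPRR3 and TGM1 was not tested. Of 8 colon markers 4 (CDX2, EPCAM, GPA33 and KRT20) were above the array median on all arrays of HCT116, and EPCAM was so in every group, whereas CDX1, VIL1, CDH17 and LGR5 averaged below it in HCT116. Of 5 Müllerian markers PAX8, EMX2 and SOX17 were above it on all 15 KLE arrays, while the receptor genes ESR1 and PGR averaged 6.76 to 6.93 in the KLE groups, near or below it. MSH6 lay at 23% of the shCTRL level with hairpin 543 and at 52.5% with 603. The dim MSH3 probe lay at 57.9% with 059 and 63.7% with 062, and the bright one at 97.5% and 87.5%.

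FLG was bright on every KLE array and below the array median in both other lines. Its probe (ILMN_2134130, Entrez gene 2312) read 104, 103 and 88.1 intensity units in MCF10A and 87.3, 97.3 and 112 in HCT116. In KLE it read 11462, 14013 and 9065 with hairpin 059, 13673, 8577 and 6726 with 062, 13483, 10513 and 8843 with 543, 11766, 13093 and 11896 with 603, and 15103, 10879 and 14482 with shCTRL. The lowest KLE array thus lay far above the highest of the other 6 arrays. By signal the probe ranked between 66 and 293 of 47323 on the KLE arrays, and it was below the array median on all 6 arrays of MCF10A and HCT116. Because signal depends on the probe as well as the transcript, this rank is one of signal and not of RNA amount.

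On the log2 scale FLG averaged 6.77 ± 0.06 in MCF10A and 6.75 ± 0.064 in HCT116, against 13.51 ± 0.1 in KLE shCTRL (SD, n = 3 arrays each). The measured differences were -6.75 for MCF10A and -6.76 for HCT116 against KLE shCTRL, each with an SE of 0.063. With both lines below the array median only a bound can be given: KLE shCTRL was at least 96.6-fold higher than either, with the array median as the floor. With normexp background correction the same differences were -8.91 and -8.97. The FLG locus overlaps CCDST, an antisense RNA gene, and the strand that the probe reads was not checked.

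**Figure D1:**
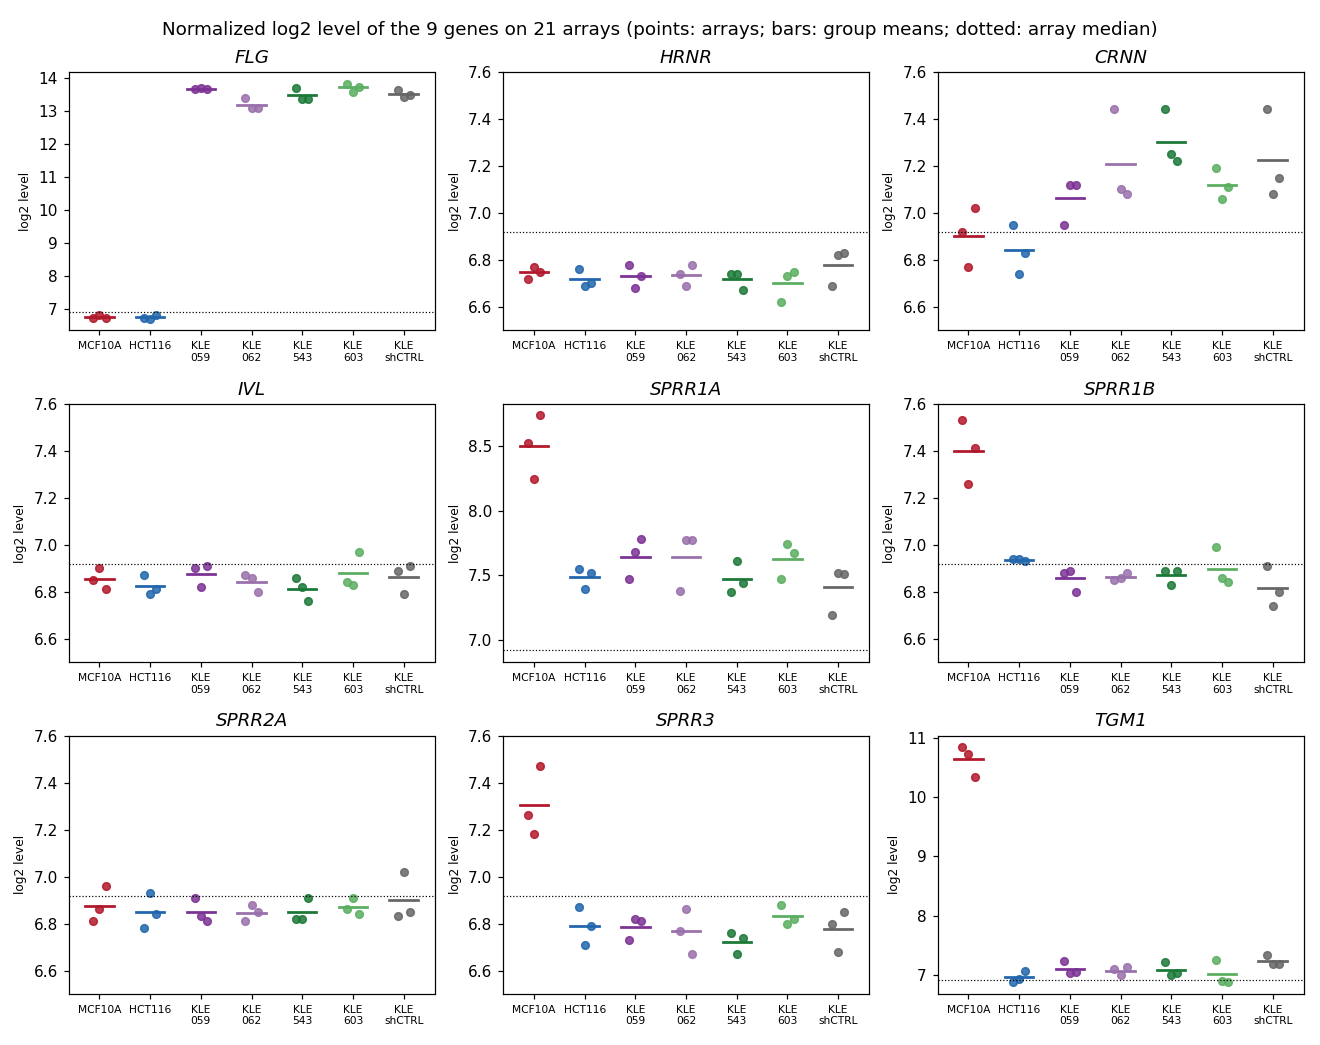
Normalized log2 level (y axis) of the 9 members on each of 21 arrays in 7 groups (x axis); points are arrays, bars group means and the dotted line the array median of 6.92. The axes differ between panels. FLG lies above 13 on all 15 KLE arrays and below the array median on the other 6, TGM1 stands at 10.34 to 10.84 in MCF10A, and HRNR stays below the array median on all 21 arrays.

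HRNR encodes hornerin, a filaggrin-like protein of the granular layer, and lies beside FLG. Its probe read 75.2 to 102 intensity units over the 21 arrays and was below the array median on all of them. Group means of its log2 level lay between 6.7 and 6.78, so no level of HRNR could be measured in any group, KLE included.

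CRNN encodes cornulin, a fused S100 protein of oesophageal and other stratified squamous epithelium. It read 123, 96.2 and 112 intensity units in MCF10A and 107, 100.04 and 113 in HCT116, against 208, 113 and 132 in KLE shCTRL. In the hairpin groups its highest values were the A arrays of 062 (210.1) and 543 (202), and the other 10 hairpin arrays read 97.3 to 128. CRNN was above the array median on all 15 KLE arrays, on 2 of 3 MCF10A arrays and on 1 of 3 HCT116 arrays. Its mean log2 level was 6.9 ± 0.13 in MCF10A and 6.84 ± 0.11 in HCT116, against 7.23 ± 0.19 in KLE shCTRL (SD, n = 3 each). The differences were -0.33 and -0.38 (SE 0.1 each), with no overlap of the arrays on this scale in either comparison. The intensities of MCF10A and KLE shCTRL overlapped. Those of HCT116 reached 112.61, just under the lowest of KLE shCTRL (113.23). The CRNN levels are close to background, and the difference was -0.9 for MCF10A and -1.11 for HCT116 with normexp.

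The small proline-rich genes SPRR1A, SPRR1B and SPRR3 were highest in MCF10A. SPRR1A read 487, 343 and 429 intensity units in MCF10A and 166 to 202 in HCT116, against 154 to 174 in KLE shCTRL. All 3 MCF10A arrays exceeded all 18 others, whose highest was 202. The mean log2 level was 8.51 ± 0.25 in MCF10A and 7.49 ± 0.083 in HCT116, against 7.41 ± 0.19 in KLE shCTRL (SD, n = 3 each). The differences were 1.02 (2.03-fold) for MCF10A against HCT116 and 1.10 (2.14-fold) for MCF10A against KLE shCTRL, each with an SE of 0.13, and 1.55 and 1.72 with normexp. HCT116 and KLE shCTRL overlapped, with a difference of 0.08. SPRR1A was above the array median on all 21 arrays.

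SPRR1B read 207, 145 and 148 intensity units in MCF10A and 106 to 121.9 in HCT116, against 86.9 to 118 in KLE shCTRL. MCF10A overlapped neither of the other lines, the difference to HCT116 was 0.46 (1.38-fold, SE 0.072), and MCF10A was at least 1.4-fold higher than KLE shCTRL, where the probe was below the array median. SPRR3 read 162, 136 and 154 units in MCF10A, and 77.5 to 109 on the other 18 arrays, all of which were below the array median. MCF10A was therefore at least 1.31-fold higher than HCT116 and KLE shCTRL, with measured differences of 0.52 and 0.53 (SE 0.081 each). Without any one MCF10A array SPRR3 had only 2 arrays above the array median and was not tested. With normexp the differences to HCT116 were 1.13 for SPRR1B and 1.5 for SPRR3. SPRR1A and SPRR1B are close paralogs, and how far each probe reads the other transcript was not checked.

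SPRR2A and IVL, which encodes involucrin, the early scaffold protein of the envelope, showed no such step. SPRR2A read 81.7 to 118 intensity units over the 21 arrays and was above the array median on 3 of them. IVL read 84.7 to 115 and was above it on 1. Their group means spanned 6.85 to 6.9 and 6.81 to 6.88 on the log2 scale, and all pairs of lines overlapped.

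TGM1, which encodes the membrane-bound transglutaminase of keratinocytes, was the member with the widest step towards MCF10A. It read 2458, 1988 and 1352 intensity units in MCF10A and 101, 119 and 136 in HCT116, against 190.2, 122.3 and 136 in KLE shCTRL. Over all 15 KLE arrays it read 94.1 to 190.2, so the lowest MCF10A array stood far above the highest of the other 18. The mean log2 level was 10.64 ± 0.26 in MCF10A and 6.97 ± 0.093 in HCT116, against 7.24 ± 0.09 in KLE shCTRL (SD, n = 3 each). MCF10A differed from HCT116 by 3.67 (12.8-fold) and from KLE shCTRL by 3.40 (10.6-fold), each with an SE of 0.12, and by 5.23 and 4.51 with normexp. On this scale HCT116 and KLE shCTRL did not overlap, at a difference of -0.27.

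Against all genes, 7 of the 9 members passed the filter of lying above the array median on at least 3 of the 9 arrays of MCF10A, HCT116 and KLE shCTRL. HRNR and IVL did not pass. In limma (Benjamini-Hochberg adjustment over 14270 genes, threshold 0.05), 4 members were past the threshold and higher and 0 lower for MCF10A against HCT116, where 18.9% of all genes were higher and 22.6% lower. Against KLE shCTRL, MCF10A had 4 members higher (SPRR1A, SPRR1B, SPRR3 and TGM1) and 2 lower (FLG and CRNN), where 27% of all genes were higher and 25.7% lower. HCT116 had 0 higher and 2 lower (FLG and CRNN), where 29.3% of genes were higher and 25.1% lower. CRNN was no longer past the threshold for MCF10A against KLE shCTRL under median scaling, nor for either line against KLE shCTRL without normalization, and SPRR1B was no longer past it for MCF10A against HCT116 without normalization. Without any one KLE shCTRL array FLG was above the array median on only 2 arrays of the fit and was not tested. The members were selected on these levels, so nothing is read from these counts.

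FLG differed far less between the hairpin groups and shCTRL than between lines. Paired by letter, in the order A, B and C, FLG differed from shCTRL by 0.04, 0.27 and 0.15 with 059, by -0.26, -0.35 and -0.41 with 062, by 0.08, -0.06 and -0.14 with 543 and by 0.19, 0.16 and 0.24 with 603 on the log2 scale. It was thus lower on every array with 062, higher on every array with 059 and 603, and of mixed sign with 543. The mean differences were 0.15 ± 0.11, -0.34 ± 0.078, -0.04 ± 0.11 and 0.20 ± 0.039 (SD over 3 letters). With 062 FLG was again below shCTRL at every letter when arrays were scaled to 1 median (mean -0.48) or left without normalization (-0.53). With 543 it was below shCTRL at every letter in both of these settings (means -0.25 and -0.31), but not in the main one. The means of 059 and 603 were -0.08 and 0 after median scaling and -0.24 and -0.13 without normalization. The median over all genes then lay at -0.13 and -0.08 after median scaling and at -0.29 and -0.21 without normalization.

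Of the other members that could be read in KLE, TGM1 was lower than shCTRL at every letter with all 4 hairpins. Its means were -0.13 with 059, -0.16 with 062, -0.15 with 543 and -0.22 with 603. It kept that sign at every letter after median scaling and without normalization alike, but all genes shifted down too in these settings. After median scaling the TGM1 means were -0.22, -0.21, -0.18 and -0.29 in that order, where the median over all genes was -0.13, -0.04, -0.04 and -0.08. Left without normalization they were -0.38, -0.25, -0.24 and -0.41, where that median was -0.29, -0.09, -0.1 and -0.21. The level of TGM1 lay close to the array median on these arrays, at 94.1 to 164 intensity units with the hairpins, against 122.3 to 190.2 with shCTRL. SPRR1A was higher than shCTRL at every letter with 059 (mean 0.24), 062 (0.24) and 603 (0.22) and at 2 of 3 letters with 543 (0.07). Without normalization its means were -0.09, 0.13, -0.02 and -0.03. CRNN differed by -0.16 with 059, where the A arrays differed by -0.49, by -0.02 with 062, 0.08 with 543 and -0.11 with 603. The 4 comparisons share their 3 control arrays, so a sign common to all hairpins is not a repeated observation.

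Among the 15 KLE arrays 4 members (FLG, CRNN, SPRR1A and TGM1) passed the filter, and 0 of the 4 passed limma's threshold with any hairpin, where 0.397% of 14872 genes passed with 059, 0.343% with 062, 0.323% with 543 and 2.17% with 603. At an unadjusted p under 0.05 there were 0, 1, 0 and 1 members in that order, against 7.11%, 7.52%, 6.05% and 11.9% of all genes. The MSH3 hairpins against the MSH6 hairpins also gave 0 members, where 2.08% of genes passed, and 1 at an unadjusted p under 0.05, against 13% of all genes. FLG averaged 13.42 with the MSH3 hairpins, against 13.59 with the MSH6 hairpins, and the arrays overlapped. The first mean joins 13.67 with 059 and 13.17 with 062, and the second 13.47 with 543 and 13.71 with 603. This contrast pools 6 arrays for each target, and its error holds only the spread within hairpins. It does not measure how hairpins of 1 target differ, and there were only 2 for each. These fits held no term for the letter, so differences between letters entered their error. With the letter as a block FLG passed the threshold with 062 (1 member in place of 0) and no other member passed with any hairpin. The block passed 193 of all 14872 genes with 062, in place of 51.

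**Figure D2:**
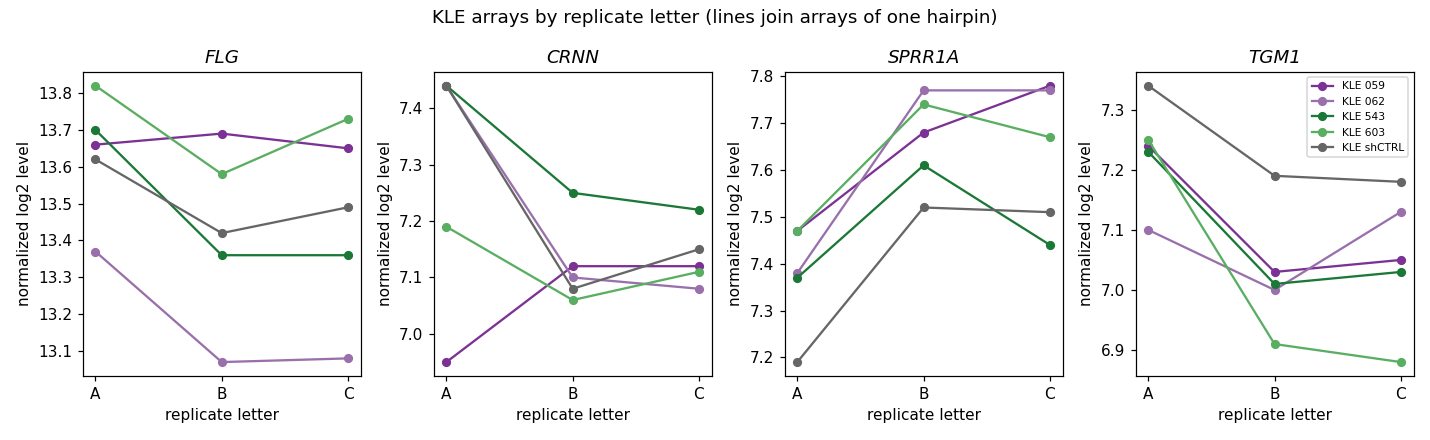
Normalized log2 level (y axis) of the 4 members that passed the filter in KLE, by replicate letter (x axis), with 1 line for each hairpin group joining its 3 arrays. The y axes differ and do not start at 0. FLG with 062 runs below shCTRL at every letter, TGM1 runs below shCTRL at every letter with all 4 hairpins, and SPRR1A is lowest at A in every group.

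Some members differed between replicate letters by as much as between hairpin groups. Within the hairpin groups, A exceeded the mean of B and C for FLG by 0.29 with 062, 0.35 with 543, 0.16 with 603 and 0.17 with shCTRL, and by 0 with 059. For TGM1 the gap was 0.03 to 0.35 in the 5 groups, and for SPRR1A it was -0.15 to -0.39. Fitted over the 5 groups, A minus the mean of B and C was 0.19 for FLG (SE 0.045), 0.19 for TGM1 (SE 0.04), 0.16 for CRNN (SE 0.06) and -0.27 for SPRR1A (SE 0.04). In limma 2 members were past the threshold and higher (FLG and TGM1) and 1 lower (SPRR1A), where 23.1% of 14872 genes were higher and 16.6% lower. Under median scaling the difference of SPRR1A was -0.06, and without normalization it was 0.07. The median over all genes was 0.15 and 0.28 in these settings. Under both of them FLG and SPRR1A lost their call and CRNN gained one. What the letters stand for is not given in the labels.

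Along chromosome 1, FLG stood alone among its neighbours in KLE. Of the 45 protein-coding genes from TCHHL1 to LORICRIN, 42 had a probe, and the brightest probe stood for each gene. On all arrays of a line, 5 of the 42 were above the array median in MCF10A and 3 in HCT116, and 3 in KLE, namely FLG, CRNN and SPRR1A. The median gene lay at 6.84 in MCF10A, 6.83 in HCT116 and 6.82 in KLE. HRNR and FLG2, the genes on either side of FLG, were near or below the array median in all 3 lines.

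**Figure D3:**
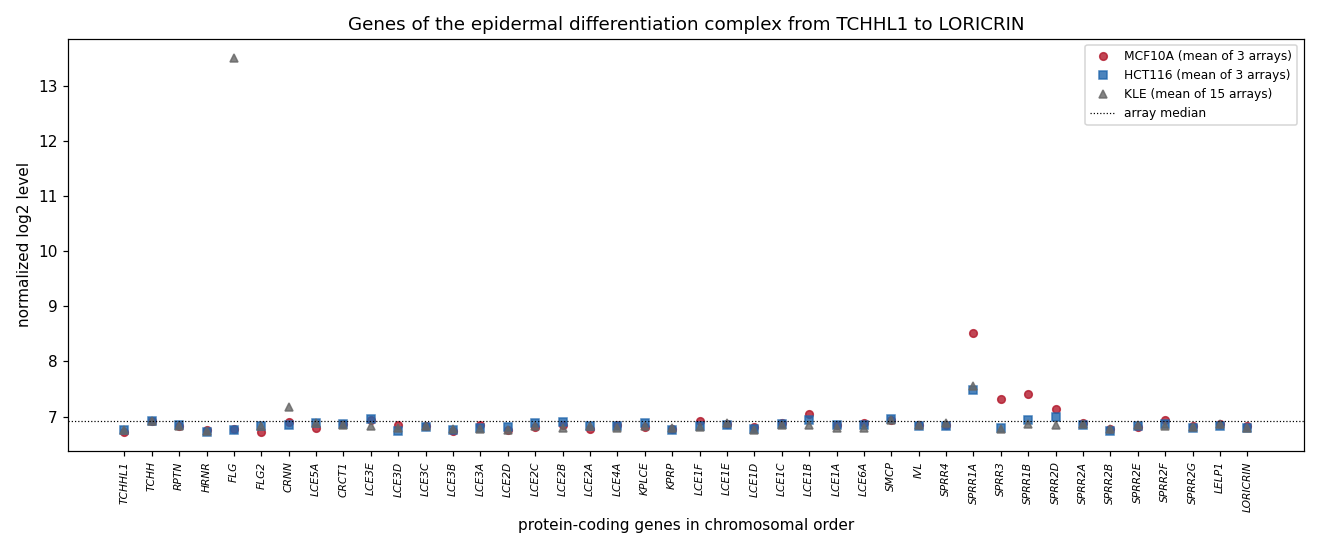
Mean normalized log2 level (y axis) of 42 genes of the epidermal differentiation complex in chromosomal order (x axis, evenly spaced) in MCF10A, HCT116 and KLE; the dotted line is the array median of 6.92. FLG in KLE stands at 13.51, and SPRR1A, SPRR3 and SPRR1B are higher in MCF10A than in the other lines. Most genes lie a little below the array median, with the median gene at 6.84 in MCF10A, 6.83 in HCT116 and 6.82 in KLE.

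Companion genes of cornification were counted next, from lists by role that were set up with earlier results of these arrays known. Of 78 listed genes 74 had a probe. Among late envelope genes (loricrin, the LCE family, LELP1, KPRP and KPLCE) 0 of 22 were above the array median on all arrays in HCT116 or any KLE group and 1 was in MCF10A. The other fused S100 genes (FLG2, RPTN, TCHH and TCHHL1) gave 0 of 4 in every group, and the other transglutaminases TGM3 and TGM5 gave 0 of 2. No loricrin, LCE, FLG2 or HRNR probe was thus above the array median on all arrays of a KLE group, where FLG was bright.

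For MCF10A against HCT116, 34 companions passed the filter, of which 13 were higher and 7 lower in limma, where 18.9% of all genes were higher and 22.6% lower, with a median log2 difference of 0.1 against -0.02 over all genes. Of these 34, 5 passed the filter through 1 group alone, ABCA12, CSTA, GATA3 and GRHL3 through MCF10A and CYP4F22 through HCT116, so these had to differ between lines and their calls are no support for a difference. Of the scaffold list 5 of 7 were higher and 0 lower. These include CSTA, 1 of the genes above that passed through MCF10A alone. LGALS7 and LGALS7B, near-identical copies, are also among them and lost their calls without normalization. Neither was above the array median on any HCT116 array or on all KLE shCTRL arrays, so both needed MCF10A arrays to pass the filter. Their calls are thus no support for a difference either. PI3, the protease inhibitor elafin that is cross-linked into the envelope, read 633, 1130 and 1277 intensity units in MCF10A, against 91.6 to 115 in HCT116, at least 6.65-fold higher (log2 difference 2.86, SE 0.34, limma adjusted p = 0.00011). CSTA, the protease inhibitor cystatin A, read 329 to 439 in MCF10A, against 89.3 to 112 in HCT116, at least 2.87-fold higher (measured difference 1.63, SE 0.13). PPL, the plakin periplakin, was 1.65-fold higher (limma adjusted p = 0.0064). These groups did not overlap for any of the 3 genes.

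Among regulators, 5 of 11 were higher in MCF10A than in HCT116 and 4 lower. GRHL3, a grainyhead factor required for the skin barrier in mice, read 307 to 486 intensity units in MCF10A, against 92 to 105 in HCT116, at least 2.89-fold higher (measured difference 1.69, SE 0.07). CEBPB was 4.89-fold higher (limma adjusted p = 3.7e-07) and NOTCH1, a receptor that promotes keratinocyte differentiation, 2.27-fold. Lower in MCF10A were FOSL1, a subunit of AP-1 (-0.84), KLF4, a factor of barrier formation (-0.79), and CEBPA (-0.51). In the lipid list ELOVL4 (2.01-fold) and ABCA12, the lipid transporter of lamellar granules (at least 1.63-fold), were higher and CYP4F22 lower (-0.3). In the list of filaggrin processing the protease gene PRSS8 was higher (0.63), and BLMH, an aminopeptidase that degrades filaggrin, and ST14, which encodes matriptase, were lower (-0.92 and -0.68). PRSS8 lost its call after median scaling and without normalization, and CYP4F22 lost it without normalization.

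For MCF10A against KLE shCTRL, 18 of the 34 companions were higher and 3 lower, where 27% of all genes were higher and 25.7% lower, with a median of 0.19 against 0.01 over all genes. The higher ones include ABCA12, CSTA, GATA3 and GRHL3. These passed the filter through MCF10A alone, so their calls are no support for a difference here either. LGALS7 and LGALS7B, also higher, needed MCF10A arrays to pass the filter, and the same holds for their calls. The 3 lower ones were PI3, PPL and ELOVL4. PI3 read 633 to 1277 intensity units in MCF10A, against 2099 to 3214 in KLE shCTRL (difference -1.48, SE 0.34, limma adjusted p = 0.0047). PPL (-0.62) and ELOVL4 (-0.45) were also lower. Higher were CSTA and GRHL3 (at least 2.87-fold and 2.89-fold), EVPL, the plakin envoplakin (1.57-fold), and LGALS7B, whose near-identical copy LGALS7 its probe may also read (0.37). NOTCH1 was 2.91-fold and CEBPB 2.79-fold higher. In the processing list CAPN1 (5.7-fold, SE 0.36 on the log2 scale), PRSS8 (3.48-fold) and ST14 (at least 2.18-fold) were higher and 0 of 4 lower. ABCA12 was at least 1.63-fold higher, and SPRR2D (0.28), LCE1B (0.2) and SDR9C7 (0.2) passed with small differences near the array median. KLE read CAPN1 at 1154 units on array A and at 239 and 245 on the other 2 shCTRL arrays, so its level there differed with the letter. ELOVL4 and LCE1B lost their calls after median scaling and without normalization, and SPRR2D and SDR9C7 lost theirs without normalization.

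For HCT116 against KLE shCTRL, 11 of the 34 companions were higher and 5 lower, where 29.3% of all genes were higher and 25.1% lower, with a median of 0.06 against 0.03 over all genes. CYP4F22, among the higher ones, passed the filter through HCT116 alone, so its call is no support for a difference. PI3 had the widest gap, at 91.6 to 115 intensity units in HCT116, against 2099 to 3214 in KLE shCTRL, where it was at least 18.6-fold higher (difference -4.34, SE 0.34, limma adjusted p = 4.7e-06). ELOVL4 (-1.46), PPL (-1.34), CEBPB (-0.81) and AHR (-0.63) were the other lower genes. All 4 tested genes of the processing list were higher in HCT116, among them ST14 (at least 3.47-fold), CAPN1 (4.28-fold) and PRSS8 (2.25-fold), together with EVPL (1.49-fold), CYP4F22 (0.3) and the factors KLF4 (2.84-fold), FOSL1 (2.17-fold) and NOTCH1 (1.28-fold). KLE shCTRL, with the bright FLG probe, thus had lower signal for the proteases ST14, PRSS8 and CAPN1 than both other lines, and ST14 was below the array median on all 15 KLE arrays. AHR and NOTCH1 lost their calls after median scaling and without normalization, and CEBPB and CYP4F22 lost theirs without normalization.

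**Figure D4:**
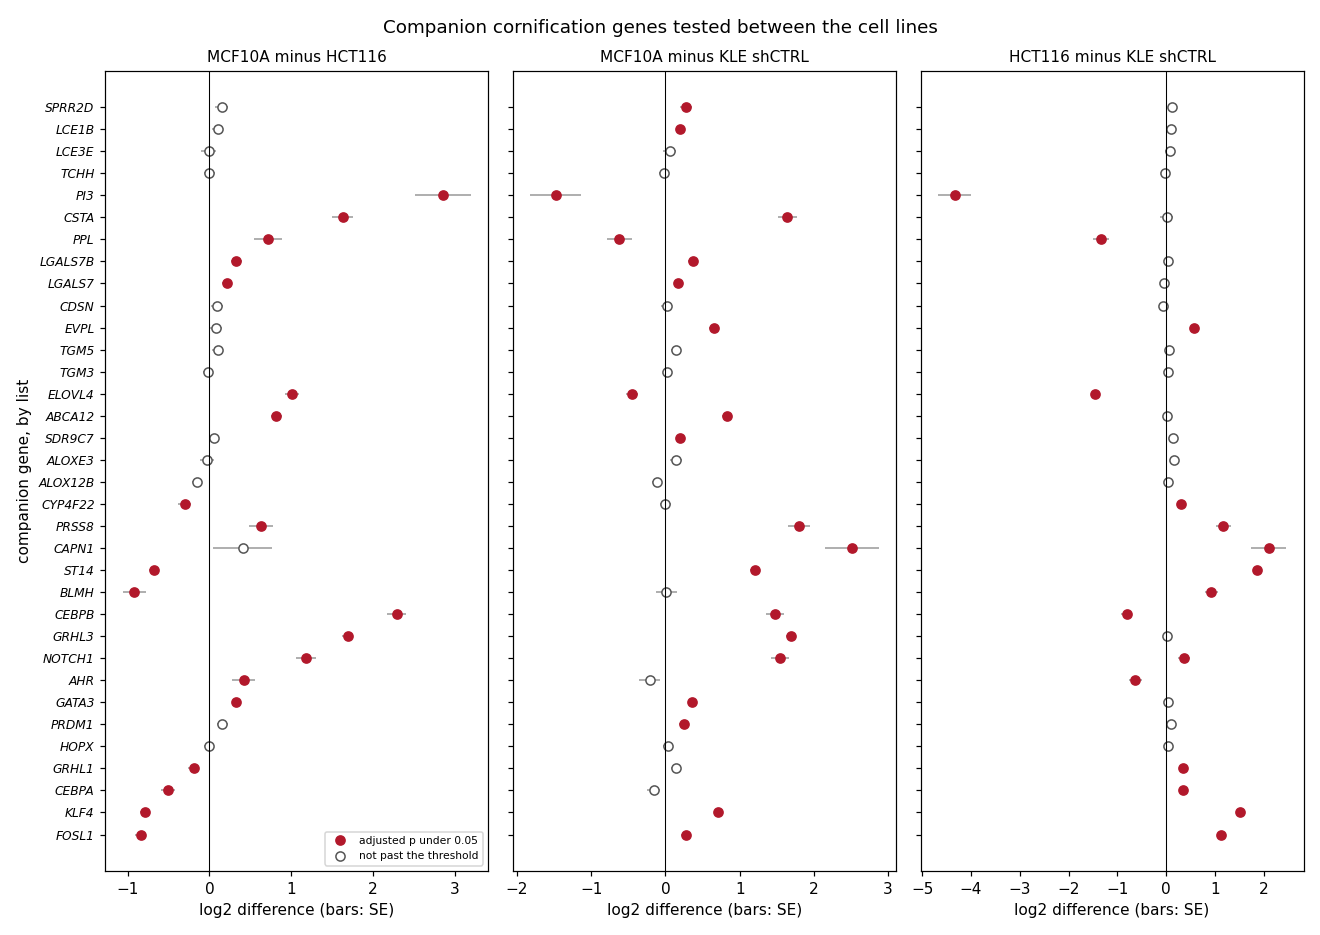
Log2 difference with SE (x axis) of 34 companion genes (y axis, ordered by list) for MCF10A minus HCT116, MCF10A minus KLE shCTRL and HCT116 minus KLE shCTRL; filled points passed an adjusted p under 0.05, and the x axes differ. PI3 lies at 2.86, -1.48 and -4.34 in the 3 panels, and GRHL3, which passed the filter through MCF10A alone, at 1.69 in both comparisons of MCF10A.

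With the hairpins, 0 of 33 companions that passed the filter in KLE passed limma's threshold in any comparison with shCTRL or between the targets. Over all 14872 genes 0.323% to 2.17% passed in these comparisons. The contrast between the targets again holds no spread between hairpins of the same target. At an unadjusted p under 0.05 there were 0 with 059, 062 and 543, 1 with 603 and 2 between the targets. The shares of all genes were 7.11%, 7.52%, 6.05%, 11.9% and 13% in that order. With the letter as a block 1 passed with 603, ELOVL4, which elongates very long fatty acids, where 1017 of all 14872 genes passed. For letter A against B and C, 7 of the 33 companions were higher and 3 lower, where 23.1% of all genes were higher and 16.6% lower. Higher were CAPN1 (1.84, SE 0.11), BLMH (0.80), PRSS8 (0.74), NOTCH1 (0.65), AHR (0.62), CEBPB (0.54) and LCE3E (0.16), and lower were PI3 (-0.80), PPL (-0.42) and CEBPA (-0.22). PI3, PPL and CEBPA lost their call after median scaling and without normalization.

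The genes whose 7 group means followed a member most closely were taken from 16132 genes, for the 3 members whose means spanned at least 1 on the log2 scale. For FLG these were SPON1, which encodes the matrix protein spondin 1, and BEX1, with root mean square differences of 0.62 and 0.67 after centring. SPON1 lay at 6.88 in MCF10A and 6.81 in HCT116, against 12.17 in KLE shCTRL, and BEX1 at 6.83 and 6.74, against 12.5. For TGM1 they were the transcription factor genes SNAI2 (0.078) and IRX2 (0.1), both at 10.31 in MCF10A, and for SPRR1A the receptor genes OLR1 (0.069) and GABRE (0.074). Of the 7 group means 5 come from 1 line.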

How the data were processed

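Total RNA of 21 cultured samples was measured on Illumina expression BeadChips. The deposited table holds linear intensity per probe. The submitters' processing notes name GenomeStudio, whose version is not given in the sources used here, and the values carry no sign of background subtraction or normalization. Groups came from the sample labels. Values were taken as log2(value + 16) and quantile-normalized over 21 arrays. A probe entered a fit if it exceeded the array median on 3 or more of its arrays, and the brightest probe stood for a gene. The control groups of the 3 lines were fitted together (9 arrays) and the 5 KLE groups together (15 arrays) with limma 3.58.1 in R 4.3.3 (lmFit, eBayes, two-sided, Benjamini-Hochberg, threshold 0.05). The main hairpin and target comparisons ignored the pairing by letter, which entered only the letter contrast and the block alternative. The fits were run on simulated data with independent noise for each array and no letter effect. Only recovery of large changes was required there, so that check does not bear on the small hairpin differences.

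The members and gene lists were chosen with earlier results of these data known. Named companions are up to 3 rises and 3 falls past the threshold per list and comparison; every member is named.

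Residuals of KLE arrays with the same letter correlated (median r 0.69 for A, 0.53 for B, 0.57 for C, lowest 0.39 over 30 pairs in all). Those of B and C arrays correlated as much with each other (0.53), whereas A gave -0.6 with B and -0.62 with C. The residuals thus set A apart and do not tell B from C, and KLE arrays were paired by letter as labelled. The control lines share only a number (0.05, -0.22 and -0.28). Motifs were searched in RefSeq windows of GRCh38.p14 with Python 3.11.15 and aligned with Biopython 1.88.

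Alternatives were pseudocounts of 1 and 64, median scaling, no normalization, normexp, other filters, probes averaged, other sets of arrays in the fit, the letter as a block and each array left out. Letters B and C alone was added after seeing the data.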

Additional observations from a re-analysis of the deposited data

Results flagged for a closer look

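FLG moved in opposite directions with different hairpins at every letter. Its mean log2 difference from shCTRL over 3 letters was 0.15 with 059 and 0.20 with 603, higher at all 3 letters with each, and -0.34 with 062, lower at all 3. The difference between hairpins was not tested, the 3 comparisons share their shCTRL arrays, and 059 and 062 are meant for the same target. The sign with 059 and 603 was not kept at every letter after median scaling or without normalization, whereas that with 062 was.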

How the results depend on the processing

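Of 202 counts of genes past the threshold recomputed under the other settings, 187 stayed within 1.5 times, and of 138 recomputed with 1 array left out 134 did. Many of these are hairpin and target counts that were 0 and stayed 0. Others count members, which were chosen on these levels. The totals are therefore not a measure of stability. The exceptions were these. Without normalization 13 companions passed for MCF10A against HCT116 in place of 20, and 1 member for HCT116 against KLE shCTRL in place of 2 (CRNN was lost). With a filter at the 75th percentile 2, 3 and 1 members passed for MCF10A against HCT116, MCF10A against KLE shCTRL and HCT116 against KLE shCTRL in place of 4, 6 and 2, since fewer were tested. In KLE, letters B and C alone gave 2 companions with 059, 3 with 062, 1 with 543, 4 with 603 and 3 between the targets, and 2 members with 062 (FLG and SPRR1A) and 1 with 603 (TGM1), in place of 0 each. Calls over all 13909 genes tested rose as well in that setting. They were 784 higher and 922 lower with 059, 1127 and 1317 with 062, and 368 and 395 with 543. With 603 they were 1194 and 1261, and between the targets 1183 and 1248, so nothing is read from these gains. The replicate block gave 1 member with 062 (FLG) and 1 companion with 603 (ELOVL4), a fit of all 21 arrays also 1 with 603 (ELOVL4), and the block moved no other count of these genes by over 1.5 times; over all genes it passed 215 with 059, 193 with 062, 157 with 543, 1017 with 603 and 1323 between the targets, in place of 59, 51, 48, 323 and 309. Of differences past the threshold, SPRR1A for letter A against B and C was reversed, at 0.07 without normalization in place of -0.27. Of 16 paired hairpin differences of members, none past the threshold, 6 changed sign without normalization (FLG with 059 and 603, CRNN with 543, SPRR1A with 059, 543 and 603) and 1 after median scaling (FLG with 059).

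With 1 array left out, companions ranged over 14 to 18 for MCF10A against HCT116, 13 to 22 for MCF10A against KLE shCTRL (13 without MCF10A replicate 3), 14 to 16 for HCT116 against KLE shCTRL, 8 to 11 for the letters and 0 to 0 for the hairpins and targets. Members ranged over 3 to 4, 4 to 5, 1 to 2, 3 to 4 and 0 to 0. The value of 1 came without any of the 3 KLE shCTRL arrays, where FLG was above the array median on only 2 arrays of the fit and was no longer tested. Without any one MCF10A array CSTA, GRHL3, ABCA12 and GATA3 also lost their call against HCT116. Scaling moved the split of calls over all genes: for the letters 58.1% were higher in the main setting, 90.7% under median scaling and 97.5% without normalization, for 059 33.9%, 0% and 0%, for 062 47.1%, 27.8% and 10%, for 543 37.5%, 5.88% and 0%, for 603 33.4%, 3% and 0%, and between the targets 54.4%, 87.1% and 100%. Apart from the losses through fewer genes or arrays tested, the cause was not tested. Background in the intensities limits every statement on dim members.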
